A study of Mus musculus with 8 samples.

Results

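The mouse mitochondrial genome encodes 13 proteins of oxidative phosphorylation. The genes described here are the 6 that do not belong to complex I: mt-Cytb of complex III, mt-Co1, mt-Co2, and mt-Co3 of complex IV, and mt-Atp6 and mt-Atp8 of ATP synthase. They were taken by name from the 20170 genes of the count table, and the other 7 mitochondrially encoded genes (mt-Nd1 to mt-Nd6 and mt-Nd4l, all of complex I) served as the closest comparison. T cells were purified from spleens of WT mice and of SDHA-KO mice, in which loxP-flanked Sdha alleles (Sdha fl/fl) were deleted by a Cre transgene driven from CD4 regulatory sequence, all on a B6 background and 8 to 12 weeks old, and were used either unstimulated or after 48 hours with 5 μg/mL soluble anti-CD3 and 2.5 μg/mL soluble anti-CD28, with dead cells removed. Single-cell RNA sequencing gave 8 libraries, 2 for each of the 4 combinations of genotype and state. Expression of the CD4-Cre transgene is a limit of the model, since cells that never express it, such as γδ T cells, may keep Sdha. The records do not say whether the 2 libraries of a group came from separate mice, so p values measure only the spread between these samples, which may be technical.

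Complexes III and IV pass electrons from ubiquinol to cytochrome c and on to oxygen while they move protons across the inner mitochondrial membrane, and ATP synthase uses the proton gradient to make ATP. Sdha encodes the catalytic subunit of complex II, the only complex of the electron transport chain with no mitochondrially encoded subunit, which feeds electrons into the same ubiquinol pool. All 6 genes are copied from one strand into long precursors, which are cut, in most places at tRNAs that lie between the genes, and then polyadenylated. The cut between mt-Atp6 and mt-Co3, which no tRNA separates, is made without one. Resting T cells enlarge and build mitochondria when they are activated.

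The genes lie close together on the mitochondrial chromosome, and where they overlap a read cannot be given to one of them. In the GENCODE annotation of build GRCm38, all on the plus strand, mt-Co1 covers chrM:5328-6872, mt-Co2 chrM:7013-7696, mt-Atp8 chrM:7766-7969, mt-Atp6 chrM:7927-8607, mt-Co3 chrM:8607-9390, and mt-Cytb chrM:14145-15288. None of them has an intron. mt-Atp8 and mt-Atp6 share 43 bases, chrM:7927-7969, and are carried on a single mature RNA, and mt-Atp6 and mt-Co3 share 1 base. The whole of mt-Atp8 is shown because it is the least counted of the genes and its last bases, in capitals, are also the first bases of mt-Atp6. The last 60 bases of mt-Cytb and of the complex IV genes are shown because 3′ libraries are primed from the poly(A) tail, and the bases of the stop codon that the genome holds are in capitals:
mt-Atp8: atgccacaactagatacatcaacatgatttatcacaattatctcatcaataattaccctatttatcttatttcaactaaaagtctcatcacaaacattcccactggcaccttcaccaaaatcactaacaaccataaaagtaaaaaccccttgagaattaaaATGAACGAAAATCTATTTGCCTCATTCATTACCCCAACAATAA
mt-Co1: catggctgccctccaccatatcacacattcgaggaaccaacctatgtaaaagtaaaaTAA
mt-Co2: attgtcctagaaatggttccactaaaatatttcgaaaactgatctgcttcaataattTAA
mt-Co3: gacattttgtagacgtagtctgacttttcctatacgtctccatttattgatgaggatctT
mt-Cytb: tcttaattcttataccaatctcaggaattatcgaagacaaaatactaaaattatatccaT
The last 60 bases end at the annotated end of each gene. mt-Co1 and mt-Co2 end in a full stop codon, whereas mt-Co3 and mt-Cytb end in a single T beyond whole codons, and the poly(A) tail supplies the rest of their stop codons. The longest run of A inside a gene ranged from 4 bases in mt-Co2 to 7 bases in mt-Co1, and the part that priming inside a gene has in the counts was not tested.

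The libraries held from 1395 to 1801 cells and from 10947009 to 51398728 UMIs (unique molecular identifiers, 1 for each captured RNA molecule). Counting error (Poisson, over PCR-collapsed UMIs) ranged from 0.112% to 1.94% of the value for the 6 genes over all T cells of the 8 libraries. The spread between replicates and not depth thus limits the comparisons of whole libraries. T cell markers were present in every library (5 of 5 genes above 0, summed level from 1876 to 4156 CPM, the count scaled to a common library size). Sdha, the targeted gene, was at 86.5 CPM in both WT libraries before stimulation and at 84.5 and 81.2 CPM after it, and in SDHA-KO at 43.1 and 43.7 CPM before and 41.4 and 36.8 CPM after. Markers of other cells were detected too. B cell markers summed to 159 and 171 CPM in unstimulated WT, 153 and 106 in unstimulated SDHA-KO, 79.6 and 37.4 in stimulated WT, and 183 and 64.0 in stimulated SDHA-KO. NK cell markers summed to 10.3 and 10.95 CPM in stimulated WT and 18.4 and 21.2 in stimulated SDHA-KO, myeloid markers to at most 28.9 CPM, in the first unstimulated SDHA-KO library, and to at most 5.97 CPM elsewhere, and markers of erythroid cells and platelets to at most 2.71 CPM. The part of these cells in the results was not tested. Whether the counted 3′ end of Sdha lies in the deleted part is not given in the sources used here. Of the 12823 distinct cell barcodes, 23 occurred in more than 1 library.

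The 6 genes together made up 3.26% and 3.18% of all UMIs in the unstimulated WT libraries and 2.95% in both unstimulated SDHA-KO libraries. After stimulation they made up 7.03% and 6.18% in WT and 2.45% and 2.26% in SDHA-KO. Over all T cells the 4 groups did not overlap, and their order was stimulated WT, unstimulated WT, unstimulated SDHA-KO, and stimulated SDHA-KO. In UMIs per cell the order was not the same: a cell held on average 256 and 268 UMIs of the 6 genes in the unstimulated WT libraries, 279 and 263 in unstimulated SDHA-KO, 1908 and 1764 in stimulated WT, and 701 and 654 in stimulated SDHA-KO. Thus the unstimulated groups overlapped per cell, and both stimulated groups lay above both unstimulated groups. In cells annotated as CD8, the 6 genes took 3.33% and 3.22% of all UMIs in unstimulated WT and 3.35% in both unstimulated SDHA-KO libraries. They took 3.47% and 3.51% there in stimulated SDHA-KO, so both SDHA-KO groups lay above unstimulated WT. Per kilobase of gene and in unstimulated WT cells, as the mean share of all UMIs of 2 libraries, mt-Atp6 (1.28%), mt-Co3 (1.01%), and mt-Co2 (0.868%) were at the top, mt-Cytb (0.364%) and mt-Co1 (0.341%) were in the middle, and mt-Atp8 (0.117%) was the lowest. In stimulated WT cells mt-Co2 (2.27% per kilobase), mt-Atp6 (2.19%), and mt-Co3 (2.06%) were again the top 3. A 3′ library counts RNA molecules and not bases, so these levels per length are a common scale for the comparison and not an estimate of RNA mass.

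**Figure D1:**
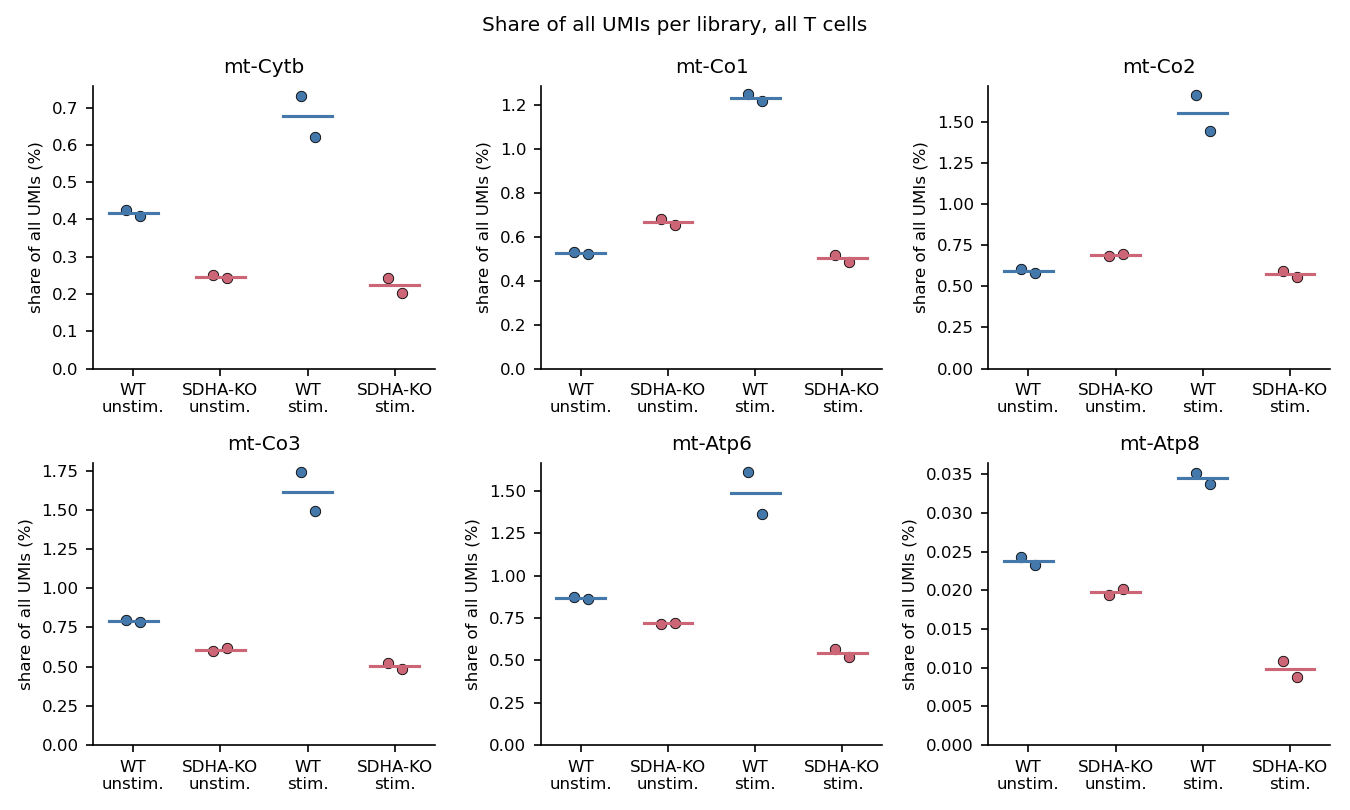
Share of all UMIs (%) taken by each of the 6 genes in each library, by genotype and state; each point is 1 library and each line a mean of 2 libraries. In stimulated cells, both SDHA-KO libraries lie below both WT libraries for all 6 genes, and in unstimulated cells mt-Co1 and mt-Co2 lie higher in SDHA-KO and the other 4 genes lower.

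In stimulated T cells, all 6 genes had a lower level in SDHA-KO than in WT. mt-Cytb, the cytochrome b of complex III and its only mitochondrially encoded subunit, took 0.732% and 0.621% of all UMIs in the WT libraries and 0.243% and 0.203% in the SDHA-KO libraries. Both SDHA-KO libraries were below both WT libraries, and the fall was 2.96-fold (log2 −1.57 ± 0.10 SE, n = 2 per group, adjusted p = 6.1e-06). These and the following adjusted p values come from edgeR's quasi-likelihood test on the UMIs summed per library, with Benjamini-Hochberg adjustment over all genes tested in the fit. These were 15262 genes over all T cells, 14264 in CD4 cells, 13095 in CD8 cells, and 14235 in the fit of both classes. Fits of selected cells tested other numbers of genes. Between stimulated SDHA-KO and WT over all T cells, 47.2% of all genes tested were called at an adjusted p under 0.05. Of all genes, 26.2% were called as higher and 21.0% as lower in SDHA-KO. The median log2 change was −1.50 over the 6 genes and 0.00 over all genes tested. Within cells annotated as central memory (Tcm) alone, it was −0.78 over the 6 genes. A list of 6 genes used as signs of RNA quality and stress (Malat1, Neat1, Fos, Jun, Hspa1a, and Hspa1b) was lower in the same cells, at 4388 and 4009 CPM in stimulated WT against 2602 and 2499 CPM in stimulated SDHA-KO, as it was before stimulation, at 17614 and 16752 against 12817 and 14410 CPM. Its part in the difference was not tested.

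The complex IV genes also fell. mt-Co1, which encodes the catalytic subunit with the oxygen-binding heme and copper site, took 1.25% and 1.22% of all UMIs in stimulated WT and 0.519% and 0.486% in stimulated SDHA-KO (log2 −1.26 ± 0.07, adjusted p = 3.7e-06). mt-Co2, whose copper center takes the electron from cytochrome c, took 1.66% and 1.45% in WT and 0.592% and 0.556% in SDHA-KO (log2 −1.40 ± 0.08, adjusted p = 3.6e-06). mt-Co3, the third core subunit, took 1.74% and 1.49% in WT and 0.525% and 0.488% in SDHA-KO (log2 −1.64 ± 0.08, adjusted p = 2.1e-06). For each of these 3 genes the genotypes were separated by more than the spread between libraries.

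The ATP synthase genes behaved in the same direction. mt-Atp6, which forms part of the proton channel, took 1.61% and 1.37% of all UMIs in stimulated WT and 0.564% and 0.518% in stimulated SDHA-KO (log2 −1.43 ± 0.08, adjusted p = 4.7e-06). mt-Atp8, a small subunit of the membrane part, took 0.0352% and 0.0338% in WT and 0.0109% and 0.00883% in SDHA-KO. Its fall of 3.43-fold (log2 −1.78 ± 0.09, adjusted p = 2.1e-06) was the largest estimate of the 6. Leaving out any 1 library kept all 6 genes called as lower.

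In unstimulated T cells the genes did not move together. mt-Cytb took 0.425% and 0.408% of all UMIs in WT and 0.250% and 0.242% in SDHA-KO, a fall of 1.81-fold (log2 −0.85 ± 0.10, adjusted p = 0.0037). mt-Co3 took 0.795% and 0.786% in WT and 0.599% and 0.618% in SDHA-KO, a fall of 1.39-fold (log2 −0.47 ± 0.08, adjusted p = 0.020). These were 2 of 6 genes called as lower, where 1.08% of all genes were, and none was called as higher, where 0.668% of all genes were. Both calls were lost without single libraries: that of mt-Cytb without the first or the second WT library (adjusted p = 0.077 and 0.083), and that of mt-Co3 without any 1 of the 4 libraries (adjusted p from 0.092 to 0.25).

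The other 4 genes did not pass the test in unstimulated cells. Their WT and SDHA-KO libraries did not overlap, which with 2 libraries against 2 corresponds to an exact two-sided permutation p of only 0.33. The share of all genes that separate in this way is not given here, so the separation is no result about these 4 genes. mt-Co1 took 0.530% and 0.522% of all UMIs in WT and 0.682% and 0.654% in SDHA-KO (log2 0.25, adjusted p = 0.11). mt-Co2 took 0.606% and 0.582% in WT and 0.682% and 0.696% in SDHA-KO (log2 0.12, adjusted p = 0.45). Both lay higher in SDHA-KO, against the direction of mt-Cytb and mt-Co3. mt-Atp6 took 0.877% and 0.862% in WT and 0.714% and 0.721% in SDHA-KO (log2 −0.37, adjusted p = 0.062). mt-Atp8 took 0.0243% and 0.0233% in WT and 0.0194% and 0.0202% in SDHA-KO (log2 −0.36, adjusted p = 0.078). DESeq2 called 5 of the 6 genes in this comparison, all but mt-Co2, where it called 3.13% of all genes.

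**Figure D2:**
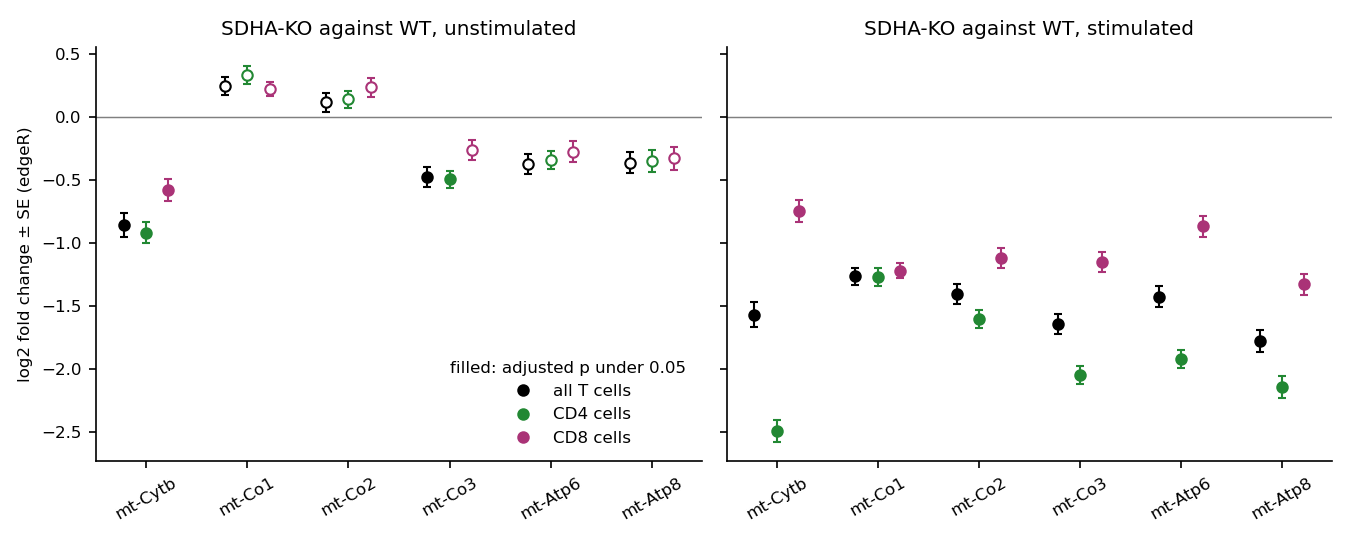
Log2 fold change of SDHA-KO against WT (y axis) for each of the 6 genes, in unstimulated (left) and stimulated cells (right), over all T cells (black) and in CD4 (green) and CD8 cells (purple); points are edgeR estimates, filled where the adjusted p was under 0.05, and bars are ± 1 SE (2 libraries per group). In stimulated cells every estimate is below 0, from −2.49 for mt-Cytb in CD4 cells to −0.75 for mt-Cytb in CD8 cells, and in unstimulated cells mt-Co1 and mt-Co2 are above 0 with open points.

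The SDHA-KO effect differed between the states for all 6 genes (6 of 6 called in the interaction test as lower after stimulation, where 11.4% of all genes were). The difference was −0.71 ± 0.14 on the log2 scale for mt-Cytb (adjusted p = 0.0048) and between −1.06 and −1.52 for the other 5. mt-Cytb was thus the gene with the largest fall in unstimulated cells and the smallest added fall after stimulation.

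Over all T cells, stimulation moved the genes, relative to the scaled library size, in opposite directions in the 2 genotypes. In UMIs per cell the 6 genes together rose in both genotypes. In WT cells mt-Co2 rose 2.06-fold (log2 1.04), mt-Co1 by 0.89, mt-Co3 by 0.69, mt-Atp6 by 0.43, and mt-Cytb by 0.35 on the log2 scale (5 of 6 genes called as higher, where 37.0% of all genes were). mt-Atp8 had a log2 difference of 0.19 (adjusted p = 0.068). Without the first stimulated WT library the call of mt-Cytb was lost (log2 0.25, adjusted p = 0.059). Over all SDHA-KO T cells the 6 genes fell (6 of 6 called as lower, where 32.6% of all genes were), from −0.36 for mt-Cytb (adjusted p = 0.0070) to −1.23 for mt-Atp8. In the CD8 class of SDHA-KO, however, 3 of 6 genes fell with stimulation (30.9% of all genes did), mt-Co1 by 0.55, mt-Co2 by 0.29, and mt-Atp8 by 0.65 on the log2 scale, and 1 of 6 rose (37.2% of all genes did). This was mt-Cytb, from 0.313% and 0.290% to 0.431% and 0.437% of all UMIs (log2 0.24, adjusted p = 0.030), and mt-Co3 and mt-Atp6 did not pass the test (adjusted p = 0.062 and 0.12). In SDHA-KO cells of this class with a UMI of the γδ T cell gene Trdc, mt-Cytb had a mean share of 0.314% before and 0.539% after stimulation. In those without one it had 0.298% (0.288% to 0.308%) before and 0.268% (0.242% to 0.294%) after, so the rise was not seen there. No test was run on this split. The interaction was called for 5 of 6 genes in the CD8 class (10.2% of all genes were), all but mt-Cytb (log2 −0.17, adjusted p = 0.37). The comparisons with stimulation in WT and in SDHA-KO share no library, but each shares libraries with the genotype comparisons. Over all genes the median log2 change with stimulation in WT was 0.08 with TMM scaling and 0.43 without scaling, and without it the fall of mt-Cytb in SDHA-KO was −0.14 (adjusted p = 0.21).

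The rise in WT came with cells in which mitochondrially encoded genes took a large part of the RNA. In the deposited cell table, percent.mt is the percentage of a cell's UMIs on all 13 mitochondrially encoded genes. It reached 10 or more in 1162 and 1161 cells of the stimulated WT libraries (68.2% and 64.5%) and in 328 and 270 cells of the stimulated SDHA-KO libraries (19.9% and 16.1%), against 0 cells in both unstimulated WT libraries and 2 and 1 cells in unstimulated SDHA-KO. In stimulated cells with percent.mt of 10 or more, the 6 genes took 16.7% and 15.9% of all UMIs in WT and 13.9% and 14.6% in SDHA-KO. These cells held fewer UMIs, with medians of 11076 and 10856 per cell in WT against 61452 and 61306 in the remaining WT cells, and of 8550 and 8231 in SDHA-KO against 29650.5 and 29176. The part that RNA loss, cell size, or mitochondrial content has in the difference was not tested.

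In cells with percent.mt under 10, the genotype difference after stimulation remained and the rise in WT did not. Here the selection uses a total that includes the 6 genes. The 6 genes took 2.51% and 2.41% of all UMIs in stimulated WT and 1.60% and 1.56% in stimulated SDHA-KO, against 3.26% and 3.18% in unstimulated WT and 2.94% and 2.95% in unstimulated SDHA-KO. All 6 genes were lower in SDHA-KO than in WT after stimulation (6 of 6 called, where 16.9% of all genes were called as lower), by −0.64 to −1.18 on the log2 scale. With stimulation in WT cells, 5 of 6 genes fell (33.1% of all genes did), among them mt-Cytb by 0.81 and mt-Atp6 by 0.91 on the log2 scale, and mt-Co1 had a log2 difference of 0.06 (adjusted p = 0.38). In SDHA-KO cells all 6 genes fell with stimulation (34.7% of all genes did), by 1.01 to 1.75 on the log2 scale. Thus the direction of stimulation in WT was opposite in the whole libraries and in these cells, while in SDHA-KO it was the same. The limit also changed the mix of subsets. In stimulated WT it kept 31 of 540 and 40 of 594 CD4 Tcm cells, and it removed 14 of 319 and 17 of 373 CD4 effector memory (Tem) cells. In stimulated SDHA-KO it kept 102 of 236 and 103 of 223 CD4 Tcm cells. The part of this mix in the direction was not tested. The SDHA-KO effect again differed between the states for 5 of 6 genes (called as lower after stimulation, where 8.71% of all genes were), all but mt-Cytb.

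**Figure D3:**
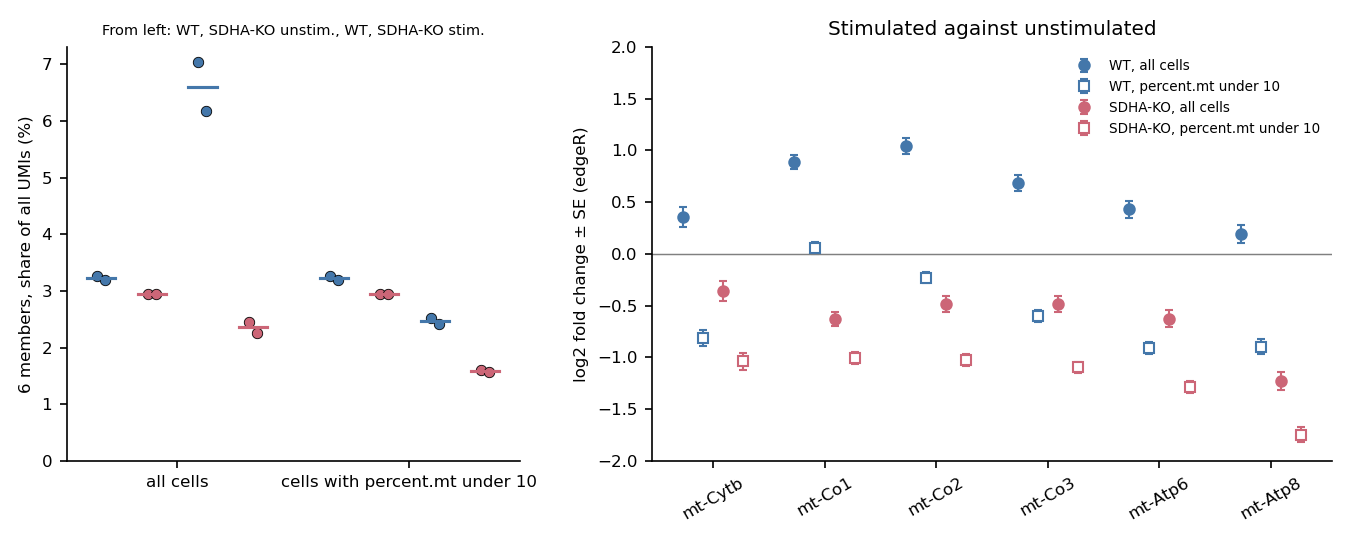
Left, share of all UMIs (%) taken by the 6 genes together in all cells and in cells with percent.mt under 10, with 1 point per library, a line at the mean, WT in blue and SDHA-KO in red; right, log2 fold change of stimulated against unstimulated cells for each gene (edgeR estimate ± 1 SE), with filled circles for all cells and open squares for cells with percent.mt under 10. The stimulated WT libraries move from 7.03% and 6.18% to 2.51% and 2.41%, both stimulated SDHA-KO libraries stay below them, and the WT changes that are above 0 in all cells are below 0 in the selected cells for all but mt-Co1.

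The make-up of the mitochondrially encoded RNA also differed between the genotypes before stimulation. As a share of the UMIs on all 13 genes, mt-Cytb took 10.3% and 10.1% in unstimulated WT and 7.01% and 6.83% in unstimulated SDHA-KO. mt-Co1 took 12.9% in both WT libraries and 19.1% and 18.5% in SDHA-KO, and mt-Co2 took 14.7% and 14.4% in WT and 19.1% and 19.6% in SDHA-KO. With the mitochondrially encoded UMIs as the total, mt-Cytb fell by 0.56 (adjusted p = 0.0074), mt-Co1 rose by 0.54 (adjusted p = 0.0090), and mt-Co2 rose by 0.41 on the log2 scale (adjusted p = 0.018). The calls were thus 1 of 6 as lower and 2 of 6 as higher, where on this scale 0.989% of all genes were called as lower and 19.2% as higher. Nuclear genes are divided by the same mitochondrial total, and the median log2 change over all genes was 0.29. Here and after stimulation, the percentages of all genes follow that total and give no background for the make-up of the 13 genes. Leaving out 1 unstimulated library took away between 0 and 3 of the 3 calls. mt-Co3 (19.3% and 19.5% against 16.8% and 17.5%), mt-Atp6, and mt-Atp8 did not pass the test. In CD8 cells alone the differences of mt-Cytb (log2 −0.40, adjusted p = 0.12), mt-Co1 (log2 0.40, adjusted p = 0.13), and mt-Co2 (log2 0.41, adjusted p = 0.11) did not pass it.

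After stimulation mt-Co1 and mt-Cytb were not called on this scale over all T cells. mt-Co1 took 14.2% and 15.8% of the mitochondrially encoded UMIs in WT and 15.9% and 16.01% in SDHA-KO, and mt-Cytb took 8.31% and 8.06% in WT and 7.42% and 6.67% in SDHA-KO. mt-Co3 fell by 0.29 (adjusted p = 0.019) and mt-Atp8 by 0.43 on the log2 scale (adjusted p = 0.0017), 2 of 6 genes called as lower where 1.16% of all genes were. The call of mt-Co3 was lost without either SDHA-KO library. In CD4 cells 4 of 6 genes were called as lower, mt-Cytb by 0.86, mt-Atp8 by 0.51, mt-Co3 by 0.41, and mt-Atp6 by 0.28 on the log2 scale. There mt-Co1 was called as higher by 0.37. Of all genes, 1.04% were called as lower and 87.4% as higher. Their median log2 change was 1.63, a shift that follows the lower mitochondrial total in SDHA-KO. With so many genes called, the adjustment over all genes is lenient for the 6 genes. In CD8 cells mt-Cytb and mt-Co1 lay in the opposite order. mt-Cytb took 8.19% and 7.87% in WT and 9.44% and 9.46% in SDHA-KO (log2 0.23, adjusted p = 0.084), and mt-Co1 took 14.2% and 16.1% in WT and 13.1% and 12.5% in SDHA-KO (log2 −0.25, adjusted p = 0.076). Only mt-Atp8 was called there, as lower (1 of 6, where 2.32% of all genes were).

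**Figure D4:**
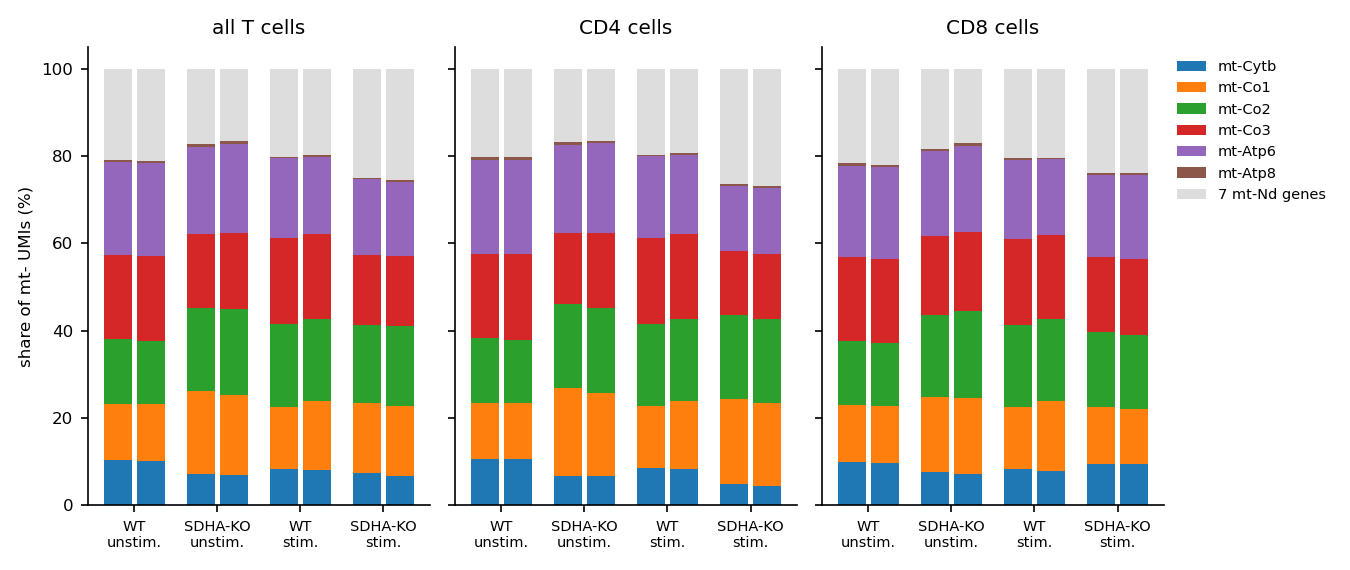
Share (%) of the UMIs on all 13 mitochondrially encoded genes taken by each of the 6 genes and by the 7 complex I genes together (grey), as 1 stacked bar per library, in all T cells and in each class. Over all unstimulated T cells the mt-Cytb segment is smaller (7.01% and 6.83% against 10.3% and 10.1%) and the mt-Co1 segment larger (19.1% and 18.5% against 12.9%) in SDHA-KO.

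The study annotated each cluster of cells as CD4 or CD8. In stimulated CD4 cells mt-Cytb took 0.640% and 0.578% of all UMIs in WT and 0.117% and 0.102% in SDHA-KO, a fall of 5.63-fold (log2 −2.49), the largest estimate for any of the 6 genes. In stimulated CD8 cells it took 0.842% and 0.677% in WT and 0.431% and 0.437% in SDHA-KO, a fall of 1.68-fold (log2 −0.75). All 6 genes were called as lower in both classes (20.5% of all genes in CD4 and 23.5% in CD8 cells were), and mt-Co1 changed by −1.27 in CD4 and −1.22 in CD8 cells. In a fit with a CD4 sum and a CD8 sum for each library, the SDHA-KO effect was smaller in CD8 than in CD4 cells for 5 of 6 genes (14.2% of all genes were called in this direction). The difference was 1.76 ± 0.07 for mt-Cytb (adjusted p = 1.4e-08), 1.07 for mt-Atp6, 0.91 for mt-Co3, 0.82 for mt-Atp8, and 0.49 for mt-Co2, and for mt-Co1 it was 0.06 (adjusted p = 0.49). In unstimulated cells mt-Cytb and mt-Co3 were called as lower in CD4 cells (2 of 6, where 0.575% of all genes were) and mt-Cytb in CD8 cells (1 of 6, where 0.664% were), and the class difference was called for 0 of 6 genes (0.0421% of all genes were called in either direction).

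The classes held different cells in the 2 genotypes. A list of 5 γδ T cell markers summed to 16.8 and 21.7 CPM in the CD8 class of stimulated WT cells and to 229 and 234 CPM in that of stimulated SDHA-KO cells, and to 26.9 and 28.5 against 232 and 167 CPM before stimulation. In the CD4 class the list was lower but also differed, at 4.79 and 5.05 CPM in stimulated WT against 18.7 and 13.1 CPM in stimulated SDHA-KO, and at 13.1 and 10.6 against 38.4 and 30.5 CPM before stimulation. In unstimulated CD4 effector memory cells, 46.3% and 41.8% of SDHA-KO cells held a UMI of Trdc, against at most 1.16% of WT cells. Trdc encodes the constant region of the δ chain, and in the CD8 class a UMI of it was found in 302 of 511 and 222 of 396 stimulated SDHA-KO cells of the CD8 class, and in 31 of 844 and 41 of 834 WT cells, which had fewer UMIs per cell (medians of 13152 and 13265 against 30662 and 29912). Stimulated SDHA-KO cells of the CD8 class with a Trdc UMI had Sdha at 74.0 and 70.9 CPM, and those without one at 36.9 and 33.6 CPM. The 6 genes took 4.13% and 4.09% of all UMIs in the former and 2.39% and 2.65% in the latter. In stimulated WT cells of the CD8 class they took 6.14% and 5.91% with a Trdc UMI and 8.27% and 6.92% without one. Sdha was at 80.0 and 88.3 CPM in the WT cells with a Trdc UMI. Both SDHA-KO libraries thus lay below both WT libraries in cells with a Trdc UMI as well as in cells without one. The cause of the lower share in SDHA-KO cells with a Trdc UMI was not tested.

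With classes limited to cells with a UMI of their own coreceptor and none of the other coreceptor or of Trdc, the class difference was called for 2 of 6 genes. These limits select cells by detected UMIs and left 169 and 147 stimulated SDHA-KO cells in the CD8 class. mt-Cytb still fell less in CD8 cells (difference 0.94, adjusted p = 0.00028), mt-Co1 fell more (−0.25, adjusted p = 0.021), and the other 4 genes, with differences from 0.01 to 0.32, did not pass the test. In this fit 6.29% of all genes were called as higher and 8.23% as lower. All 6 genes were again lower in stimulated SDHA-KO CD8 cells (24.4% of all genes were), from −1.53 for mt-Co1 to −1.96 for mt-Atp8.

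The ratio of mt-Co1 to mt-Cytb UMIs, chosen after the values were seen, describes the change in make-up across the annotated subsets, and no test was run on it. In naive CD4 cells it was 1.18 and 1.22 in WT and 3.20 and 3.05 in SDHA-KO, and in regulatory T cells 1.20 and 1.25 against 3.17 and 2.98. In naive CD8 cells it was 1.29 and 1.34 against 2.38 and 2.55. In unstimulated CD4 effector memory (Tem) cells it was 1.36 and 1.32 against 1.49 and 1.43, and in unstimulated CD8 central memory (Tcm) cells 1.51 and 1.43 against 1.89 and 1.75. SDHA-KO lay above WT in each of these subsets, by most in the naive and regulatory cells. In CD4 Tem cells the order was lost when cells were limited to those with a Cd4 UMI and none of the CD8 coreceptor or Trdc, with a ratio of 1.38 and 1.45 in WT and 1.37 and 1.40 in SDHA-KO. The subsets also differed in Sdha. In naive CD4 cells it was 92.1 and 92.7 CPM in WT and 42.6 and 42.4 CPM in SDHA-KO, in regulatory cells 91.3 and 96.3 against 42.6 and 61.8 CPM, and in naive CD8 cells 75.5 and 82.4 against 28.8 and 30.1 CPM. In CD4 Tem cells it was 97.6 and 79.8 CPM in WT and 82.8 and 78.7 CPM in SDHA-KO, and in CD8 Tcm cells 83.3 and 58.3 against 56.7 and 58.8 CPM, so the genotypes overlapped in both memory subsets. The part that cells with intact Sdha have in the ratio was not tested.

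After stimulation the ratio was higher in SDHA-KO in both CD4 subsets and lower in both CD8 subsets. In CD4 Tcm cells it was 1.53 and 1.76 in WT and 5.67 and 4.94 in SDHA-KO, and in CD4 Tem cells 2.02 and 2.18 against 3.47 and 4.19. In CD8 Tcm cells it was 1.66 and 1.91 in WT and 1.22 and 1.05 in SDHA-KO, and in CD8 Tem cells 2.04 and 2.45 against 1.61 and 1.66, so SDHA-KO lay below WT. Sdha in the SDHA-KO cells was 105.9 and 99.7 CPM in CD8 Tcm cells, against 106.3 and 100.6 CPM in WT, and 49.6 and 48.3 CPM in CD8 Tem cells. In CD8 Tem cells limited to those with a CD8 coreceptor UMI and none of Cd4 or Trdc, the ratio was 2.10 and 2.46 in WT and 2.77 and 2.76 in SDHA-KO, and Sdha was 29.3 and 26.5 CPM in SDHA-KO. In CD8 Tcm cells with the same limits, of which SDHA-KO had 41 in each library, the ratio overlapped, at 1.69 and 1.91 in WT and 2.02 and 1.18 in SDHA-KO. Of the 12 stimulated clusters with at least 20 cells in each library, SDHA-KO lay above WT in 7, all of the CD4 class, and below it in 5, the 4 CD8 clusters and CD4 Tem7 (1.87 and 2.03 in WT, 1.01 and 1.39 in SDHA-KO).

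**Figure D5:**
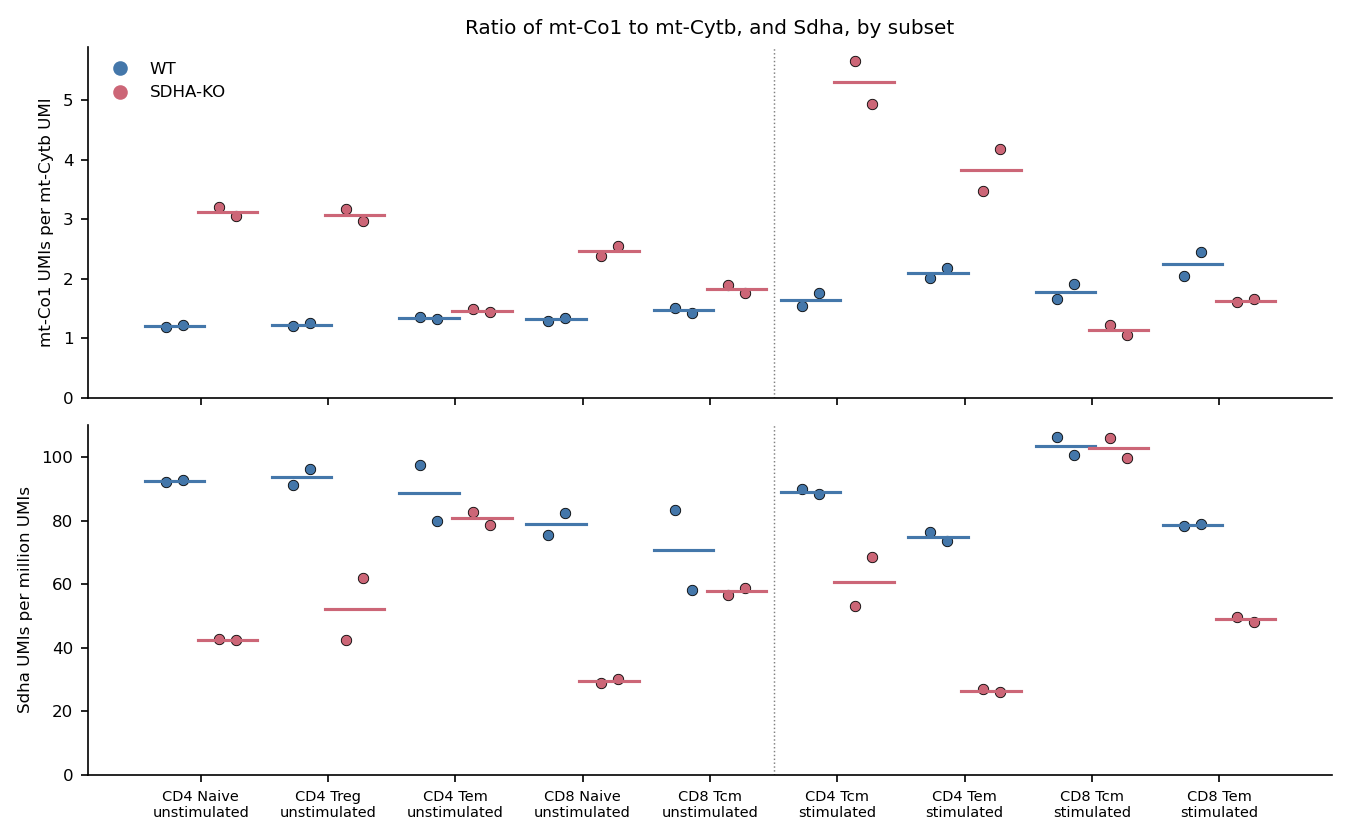
Upper panel, mt-Co1 UMIs per mt-Cytb UMI; lower panel, Sdha level (CPM, unscaled), for each annotated subset, with 1 point per library, a line at the mean, WT in blue and SDHA-KO in red, unstimulated subsets left of the dotted line. The ratio is from 1.18 to 2.45 in WT and reaches 5.67 in stimulated SDHA-KO CD4 Tcm cells, and in stimulated CD8 Tcm cells Sdha overlaps between the genotypes and the ratio is lower in SDHA-KO.

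The fall of the 6 genes after stimulation was seen in each stimulated subset. They took 16.1% and 15.3% of all UMIs in WT CD4 Tcm cells and 7.78% and 8.11% in SDHA-KO, and 2.43% and 2.33% against 1.31% and 1.32% in CD4 Tem cells. In CD8 Tcm cells they took 15.96% and 15.1% in WT and 10.6% and 12.8% in SDHA-KO, and in CD8 Tem cells 2.74% and 2.58% against 1.87% and 1.89%. Both SDHA-KO libraries lay below both WT libraries in all 4 subsets, and in 11 of 12 stimulated clusters with at least 20 cells in each library, all but CD8 Tcm4. Of 11 such clusters before stimulation, SDHA-KO lay below WT in 6, above it in 2 (CD8 Naive1 and CD8 Naive3), and overlapped with it in 3. After stimulation the CD8 Tem cells sat in different clusters by genotype. Tem1 (136 and 111 cells) and Tem6 (43 and 44 cells) reached 20 cells in SDHA-KO libraries only, and in Tem2, the CD8 Tem cluster with at least 20 cells in all 4 libraries, the 6 genes took 2.38% and 2.24% in WT and 1.81% and 1.87% in SDHA-KO. The Tcm cells had several times the share of the Tem cells in each genotype, so the mix of subsets in a library moves its total. In the CD4 class, 540 of 859 and 594 of 967 stimulated WT cells were Tcm cells, against 236 of 1137 and 223 of 1284 SDHA-KO cells. In Tcm cells of both classes together, the median log2 change of the 6 genes was −0.78, against −1.50 over all T cells. Within Tcm cells of the CD8 class, mt-Cytb (log2 −0.16, adjusted p = 0.38) and mt-Atp6 (log2 −0.28, adjusted p = 0.12) were not called, and the other 4 genes were (16.5% of all genes were called as lower there).

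The 7 complex I genes of the mitochondrial genome gave the same direction in stimulated cells, with log2 changes from −0.53 to −1.96. Of these, 7 of 7 were called as lower in SDHA-KO, where 21.0% of all genes were. In unstimulated cells 5 of 7 were called as lower (1.08% of all genes were) and 1 as higher (0.668% of all genes were). The latter was mt-Nd6, the only protein-coding gene on the other strand (log2 1.15). Whether these calls hold without single libraries is not given here. The nuclear-encoded partners of the 6 genes moved the other way after stimulation. Of the nuclear-encoded genes of complex III, 6 of 9 were called as higher in stimulated SDHA-KO cells, of complex IV 8 of 12, and of ATP synthase 12 of 18, with 0 called as lower, where 26.2% of all genes were called as higher. The lists' median log2 changes were 0.22, 0.23, and 0.32, against 0.00 over all genes. The largest rises in each list at a mean of at least 20 CPM were those of Cyc1, the cytochrome c1 of complex III (log2 0.52 ± 0.08, adjusted p = 0.00043), Cox7a2, a small subunit of complex IV (log2 0.51, adjusted p = 0.00057), and Atp5g1, a subunit of the rotating c ring (log2 0.66, adjusted p = 9.4e-05). In unstimulated cells 0 genes of these lists were called by edgeR.

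Of 30 genes that transcribe, process, or stabilize mitochondrial RNA or start its translation, 12 were called in stimulated SDHA-KO cells, all of them as higher, where 26.2% of all genes were called as higher and 21.0% as lower, with a median log2 change of 0.19 against 0.00 over all genes. The largest rise was that of Trmt10c, a subunit of mitochondrial RNase P (log2 0.39, adjusted p = 0.010). Tfam, which packages the mitochondrial genome and starts its transcription, lay at 46.0 and 47.1 TMM-scaled CPM in stimulated WT and at 56.8 and 58.4 in stimulated SDHA-KO (log2 0.31, adjusted p = 0.0025). Polrmt, the mitochondrial RNA polymerase, rose by 0.27 on the log2 scale (adjusted p = 0.046). Lrpprc and Slirp, which form a complex that stabilizes mitochondrial mRNA, had log2 differences of 0.14 (adjusted p = 0.13) and 0.13 (adjusted p = 0.22), and Taco1, the translational activator of mt-Co1, 0.14 (adjusted p = 0.34).

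Among 5713 genes outside the mitochondrial genome, those whose log2 CPM followed the summed level of the 6 genes most closely over the 8 libraries were Lyst (Pearson r = 0.981), Gtdc1 (0.980), Tsix (0.980), Adipor2 (0.977), and Dhrs7 (0.977). The 8 points share genotype, state, and depth, and the r values are a description. Lyst, a regulator of lysosome size, lay at 80.8 and 74.7 TMM-scaled CPM in unstimulated WT, 71.1 and 64.5 in unstimulated SDHA-KO, 118 and 107 in stimulated WT, and 53.4 and 58.1 in stimulated SDHA-KO. Over all T cells this was the same order of the 4 groups as for the 6 genes.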

How the data were processed

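The authors sequenced 10x Genomics 3′ HT libraries, processed the reads with bcl2fastq and Cell Ranger on mm10 per the labels, removed cells above 6000 (unstimulated) or 8000 (stimulated) detected genes and clusters without CD3 transcripts, and deposited raw UMI counts of 20170 genes in 12846 cells. The versions of Cell Ranger and bcl2fastq are not given in the sources used here. The deposited cell table gives the library, class and subset of each cell (the authors' annotation of clusters), percent.mt as a percent of the cell's UMIs, and a Cd4 to Cd8a value on a log10 scale deposited by the authors, which was checked and not otherwise used. No doublet caller was run.

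UMIs were summed per library, because cells of 1 library are not replicates. Genes were kept by filterByExpr (minimum count 10, minimum total 15), scaled by TMM, and tested with glmQLFit and glmQLFTest of edgeR 4.0.16 in R 4.3.3, in 1 fit of the 4 groups over 8 libraries (residual degrees of freedom, 4). Calls were made at an adjusted p under 0.05 (Benjamini-Hochberg). The difference between the classes came from a fit over 16 sums, 1 per class and library, with the library as a block. For the share of mitochondrially encoded RNA, the UMIs of the 13 genes were the library size for all genes tested, nuclear genes included. With 2 libraries against 2, an exact permutation test cannot go below a two-sided p of 0.33, so single ratios and shares have no p value. Per-cell values used Python 3.11.15, numpy 2.4.6, pandas 2.3.3 and scipy 1.17.1, and plots matplotlib 3.10.9. The fits were tested on simulated data with seeded changes. Alternatives were no scaling, DESeq2 1.42.0, limma 3.58.1 on mean log values, nuclear genes as the total, no filter, only the groups compared, percent.mt limits of 5, 10 and 20, strict classes, Tcm or naive cells only, a 2-fold minimum, a replicate block, and each library left out.

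The replicate chi-square per degree of freedom ranged from 2.06 to 17.7, so libraries of a group differed by more than counting error. Sequences and coordinates are from the transcripts and annotation of GENCODE mouse release 21 (GRCm38, the same assembly as mm10), matched by symbol for 6 of 6 genes. The genes named are all 6 members, of each nuclear list the called gene with the largest rise and fall at 20 CPM or more (no list had a called fall), Taco1, Lrpprc, Slirp, Tfam, Polrmt, Sdha, and the 5 genes most correlated with the members (0.5 added to CPM). The members and lists were chosen with earlier results of these data known.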

Additional observations from a re-analysis of the deposited data

Results flagged for a closer look

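The SDHA-KO effect on the 6 genes differed between stimulated and unstimulated cells by the interaction term of edgeR's quasi-likelihood fit. On the log2 scale, stimulated minus unstimulated, the difference was −0.71 for mt-Cytb, −1.51 for mt-Co1, −1.52 for mt-Co2, −1.17 for mt-Co3, −1.06 for mt-Atp6, and −1.42 for mt-Atp8. In cells with percent.mt under 10, 5 of 6 were called, and for mt-Cytb the difference was −0.23 (adjusted p = 0.21).

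The SDHA-KO effect also differed between CD8 and CD4 cells after stimulation, in the fit of both classes with the library as a block. The difference, CD8 minus CD4, was 1.76 for mt-Cytb, 0.49 for mt-Co2, 0.91 for mt-Co3, 1.07 for mt-Atp6, and 0.82 for mt-Atp8. γδ T cell markers were higher in the CD8 class of SDHA-KO cells. Classes were also limited to cells with a UMI of their own coreceptor and none of the other coreceptor or of Trdc. There only the difference of mt-Cytb stayed in this direction with a call, and mt-Co1 was called in the opposite direction (−0.25).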

How the results depend on the processing

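After stimulation, the fall of all 6 genes in SDHA-KO kept its direction and its call under each alternative over all T cells and in CD4 cells, and 6 of 6 genes remained called without any 1 library, over all T cells, in CD4 and in CD8 cells. Over all T cells 6 of 6 also remained called without any 1 library in the interaction and in the fall with stimulation in SDHA-KO. The counts in unstimulated cells depended most on the processing. Over all T cells the 2 calls became 5 with DESeq2, 4 in a fit of only the groups compared, 5 at percent.mt under 5, 4 in strict classes, 0 at a 2-fold minimum, and 0 to 4 without 1 library. In CD4 cells the 2 calls became 4 without scaling, with limma, with only the groups compared, and at each percent.mt limit, 5 with DESeq2 or no filter, 0 at a 2-fold minimum, and 1 to 4 without 1 library. In CD8 cells the 1 call became 3 without scaling, with limma, and at percent.mt under 5, 2 with DESeq2, 5 with only the groups compared and at limits of 10 and 20, 0 at a 2-fold minimum, and 0 to 5 without 1 library. These counts pool both directions, so a larger count is not a broader fall. In CD8 cells 2 genes were higher and 1 lower without scaling, and 2 higher and 3 lower under 10. In CD4 cells 1 gene was higher and 3 lower in both of these settings. On the share of mitochondrially encoded RNA, the 3 calls before stimulation became 0 at a 2-fold minimum and 0 to 3 without 1 library. The 2 calls after it became 1 with only the groups compared or in Tcm cells, 4 in strict classes (1 higher, 3 lower), 0 at a 2-fold minimum, and 1 to 3 without 1 library. With stimulation a 2-fold minimum left 1 gene in each genotype, and leaving out 1 library left 4 to 6 in WT. The class difference, 5 genes, became 2 in strict classes and 2 at a 2-fold minimum. With DESeq2 over all unstimulated T cells, 3.13% of all genes were called. For most of the other settings the share of all genes called is not given here. It thus cannot be told whether the counts of the 6 genes follow that share. The cause of the changes in these counts was not tested.

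In WT, the direction with stimulation was opposite under percent.mt limits of 10, 5, and 20 for 3 genes, with a log2 change of −0.81, −0.80, and −0.30 for mt-Cytb, −0.91, −0.95, and −0.25 for mt-Atp6, and −0.90, −0.94, and −0.37 for mt-Atp8. Under limits of 10 and 5 it was −0.23 and −0.27 for mt-Co2 and −0.60 and −0.63 for mt-Co3, and −0.0083 under 5 for mt-Co1. mt-Co1 (0.53), mt-Co2 (0.42), and mt-Co3 (0.047) kept their direction under 20, as did mt-Co1 (0.060) under 10. On the share of mitochondrially encoded RNA, values near 0 changed sign: mt-Atp8 before stimulation was 0.0063 in strict classes, and after stimulation mt-Co1 was −0.10, −0.067, and −0.032 under limits of 10, 5, and 20, and mt-Co2 was 0.042 and 0.049 under 10 and 5 and 0.011 in strict classes. The class difference of mt-Co1 was −0.033 without scaling, −0.11 under 20, −0.25 in strict classes, −0.30 in Tcm cells, and from −0.018 to 0.093 without 1 library, negative only without the second stimulated WT library.

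Under percent.mt 10 the 6 genes' mean share of all UMIs was 2.46% in WT and 1.58% in SDHA-KO after stimulation, and 2.95% in SDHA-KO before it. Their share of the mitochondrially encoded UMIs was 79.1% in WT and 83.0% in SDHA-KO before stimulation, and 80.0% and 74.7% after it. As a mean over cells, the share of all UMIs after stimulation was 12.4% in WT and 3.98% in SDHA-KO. Deviations of same-numbered libraries from their group means had correlations from −0.23 to −0.0007 over 5726 genes. With 2 libraries per group, this cannot show whether same-numbered libraries share a mouse. With the replicate block, the counts of called genes over all T cells were 2 before and 6 after stimulation, as without it. Without scaling, the share of called genes that were higher moved from 38.2% to 67.5% in unstimulated cells, from 53.7% to 69.4% with stimulation in WT, from 57.8% to 41.3% in the interaction, and from 29.8% to 73.0% in unstimulated CD8 cells. Of the alternatives for single genes, 1214 kept direction and side of the threshold, 96 gained a call, 38 lost it, and 26 changed direction. Over all T cells depth was not the limit, since counting error stayed at or under 1.94%. That range does not cover the smaller subsets and strict classes.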
